A study of Mus musculus with 4 samples.

Results

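Proteasome genes were taken as all genes whose symbol is Psm followed by a letter from a to g and a number, without the interferon-induced subunits Psmb8 and Psmb9. Of 14125 genes with values in the lesion segment at 7 dpi (days post injury), 44 met this rule, and of 11472 genes at 21 dpi, 38 did. The 38 members at 21 dpi were all among the 44, and Psmb1, Psmb4, Psmb10, Psmd4, Psme2 and Psmg3 had values at 7 dpi only. Not every member is a subunit of the finished particle, because the rule also takes in assembly chaperones, activators and an inhibitor. Psma8 and Psmb11, which are specific to testis and thymus, were not analysed here.

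The proteasome degrades proteins that carry ubiquitin chains. Its barrel-shaped core particle stacks rings of alpha subunits, which gate the entrance, and rings of beta subunits, some of which cut the chain, while a regulatory particle binds the ubiquitin, removes it, and unfolds and threads the substrate. In nervous tissue the proteasome clears damaged proteins and turns over synaptic ones, and its subunit genes are known to be induced together when proteasome activity falls short.

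The mice were male targeted replacement mice, 3 to 5 months of age when assigned to injury, in which the coding region of human ApoE3 or ApoE4 stands in place of the murine gene. They received a contusion injury of the mid-thoracic spinal cord, and RNA of the segment with the lesion was sequenced at 7 or 21 dpi, which gives 4 groups: ApoE3 and ApoE4 at each time point. The comparisons ask how the genotypes differ at each time point, and each group had 3 mice. The deposited table holds 1 FPKM value per gene and group (fragments per kilobase of transcript, scaled to sequencing depth), so there is no spread between mice, no difference here has a replicate check, and no test was run. The number of reads behind a value is unknown.

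Ratios between genotypes are log2((FPKM ApoE3 + 1)/(FPKM ApoE4 + 1)), which understates differences of genes with low values, and a positive ratio means higher in ApoE3. A gene counts as past the fold when the genotypes differ by at least 1.3-fold, a log2 ratio of 0.38. Each row of the table names its comparison as ApoE3 versus ApoE4, and the first value was read as ApoE3. The numbering of the sample columns would give the opposite reading, under which every direction between genotypes below would be reversed.

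Markers of spinal cord were present in all groups, and the single markers given here were chosen after their values were seen. The neuronal gene Snap25 had 3366 (ApoE3) and 2545 (ApoE4) FPKM at 7 dpi, and 5336 and 7812 at 21 dpi. The myelin gene Mbp took between 10.1% and 14.3% of the summed FPKM of genes with values at both time points. The microglia and macrophage list summed to 6424 (ApoE3) and 8382 (ApoE4) FPKM at 7 dpi (6 of 8 genes), and to 512 and 961 at 21 dpi (5 of 8), sums carried at 7 dpi by Lyz2 (4522 and 6076.5, then 212 and 425.5). Its median log2 ratio of 21 to 7 dpi was -1.41 in ApoE3 and -0.64 in ApoE4, and Lyz2 was the extreme (-4.41 and -3.83). At 21 dpi the astrocyte list (6 of 6 genes, Gfap the most abundant) summed to 10273 FPKM in ApoE3 and 18865 in ApoE4, the neutrophil list (4 of 6, Csf3r) to 335 and 511, and the erythrocyte list (2 of 5, Hba-a1) to 469 and 601. At 7 dpi these sums were 17051 and 16607 for astrocytes, 536 and 622 for neutrophils, and 297 and 288 for erythrocytes, over 6, 5 and 3 genes. The neutrophil sum at 7 dpi was carried by Csf3r (485 and 589), while the list's median log2 ratio was 0.53 with S100a8, S100a9 and Lcn2 past the fold and higher in ApoE3 and Mmp8 (2.01 and 3.31) past the fold the other way.

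The 21 dpi groups also differed in markers of tissues other than spinal cord. Summed FPKM of the skeletal muscle list, with 7 of 8 genes listed, was 33.6 in ApoE3 and 713 in ApoE4, and its most abundant gene Tnnt3 had 22.5 and 515.5 FPKM. The sensory ganglion list, with 6 of 7 genes listed and Calca the most abundant, summed to 769 FPKM in ApoE3 and 831 in ApoE4, but that sum was carried by Calca (702 and 830 FPKM). The list's median log2 ratio was 1.90, and its other 5 genes were all past the fold and higher in ApoE3: Scn10a (20.1 and 0.15 FPKM), Avil (39.1 and 1.195), Scn11a (4.46 and 0.091), Trpv1 and Mrgprd, of which the last pair stood at 0 in ApoE4. The liver list, with 7 of 8 genes listed and Apoa2 the most abundant, summed to 10.7 and 129 FPKM. At 7 dpi the muscle list summed to 65.5 and 42.8 FPKM. The part of these tissues in the proteasome values was not tested, and in bulk RNA fewer cells of a type and less RNA per cell cannot be told apart.

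Members differed widely in level. At 7 dpi FPKM ranged from 10.7 for Psma2 to 317 for Psmd4 in ApoE3, and from 9.24 to 297 for the same genes in ApoE4. At 21 dpi the range was from 15.4 for Psmg1 to 374 for Psmd2 in ApoE3, and from 23.9 for Psmd1 to 518 for Psmd2 in ApoE4. Subunits that stand in equal number in each core particle also differed, by 18.0-fold between Psma2 and Psma7 in ApoE3 at 7 dpi, on the FPKM scale. The order of the members was much the same in all groups: Spearman's rho across the 38 members was 0.99 between genotypes at each time point and 0.94 to 0.95 between time points, as a description of genes that are not independent and share their libraries.

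**Figure D1:**
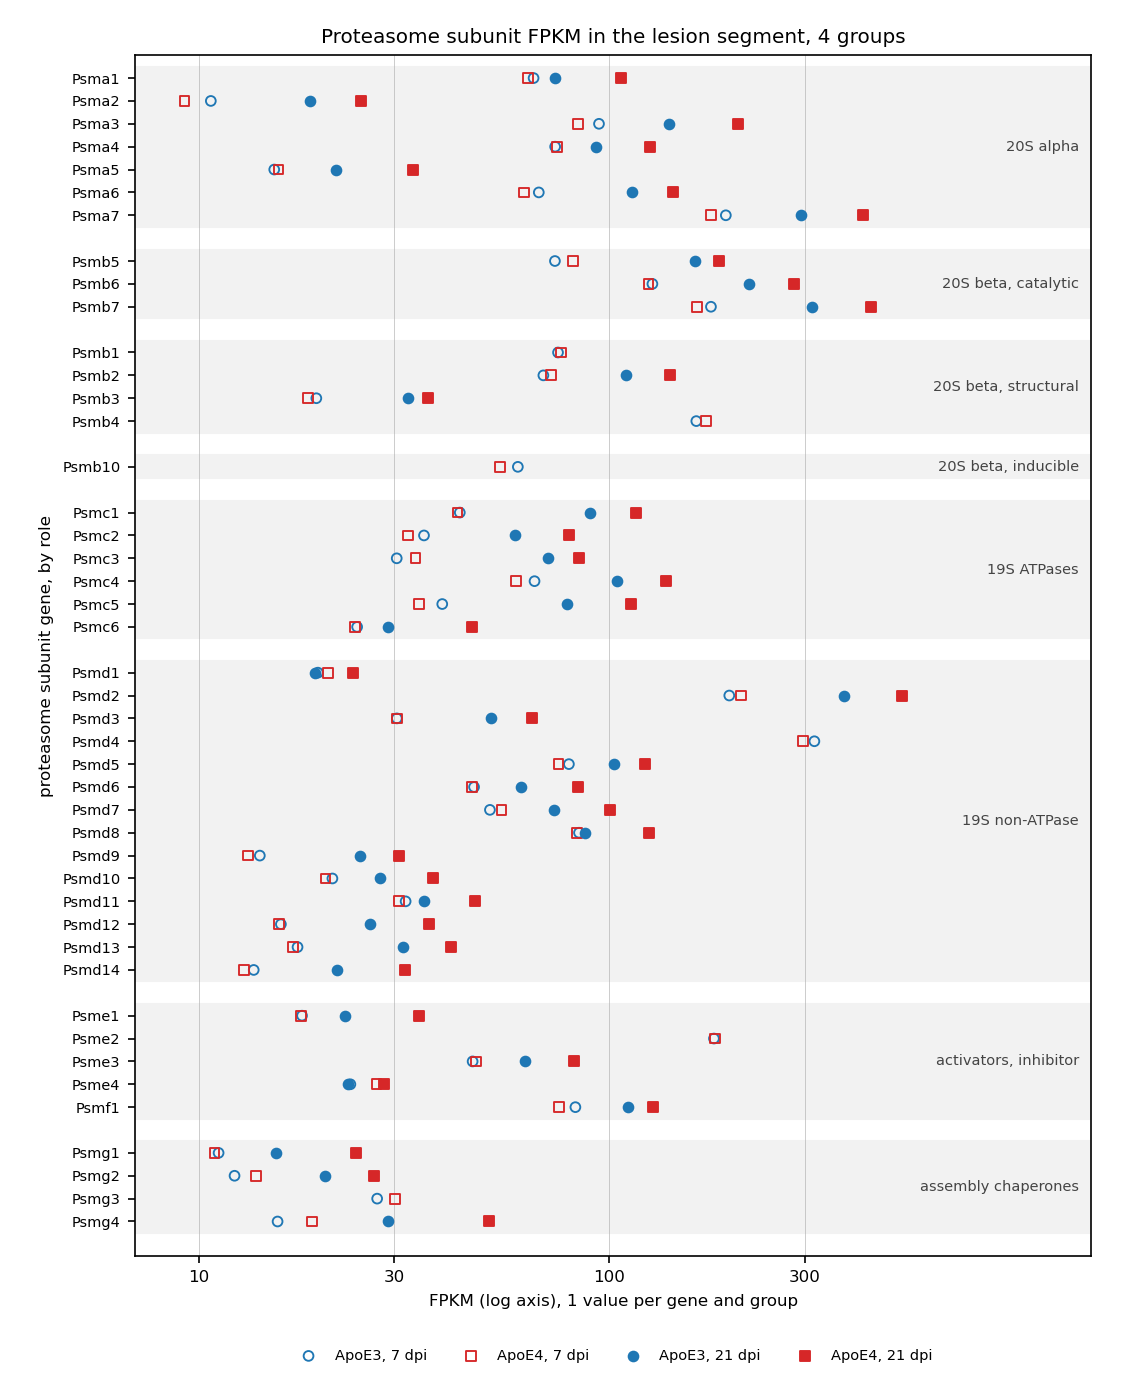
FPKM of each proteasome gene (log axis) in the 4 groups, 1 value per gene and group, with genes arranged by role. At 7 dpi the genotypes nearly coincide, and at 21 dpi every member is higher in ApoE4 than in ApoE3 before the all-gene median, -0.42 at that time point, is taken into account.

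Promoters were compared because the members are known to be regulated together. In the RefSeq promoters of GRCm38.p6, which span 250 bases before to 50 after each start, 37 of the 44 members had at least 1 window, and Psmb1, Psmb2, Psmb7, Psmc3, Psmd3, Psmd7 and Psmg2 had none. The ETS core CGGAAG, searched on both strands like all motifs here, was held by 21 of the 37 members (56.8%), compared to 16.9% of all promoters, 18.8% of all genes with a promoter and 32.0% of the genes listed in the deposited table. Among cytosolic ribosomal protein genes the share was 66.7%, and among oxidative phosphorylation genes it was 39.4%. Of the 36 matches in members, 29 began within 100 bases before to 50 after the start.

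The antioxidant response element core TGACNNNGC, through which Nrf1 is known to act on proteasome genes, was held by 6 members (16.2%): Psmb5, Psmb6, Psmc6, Psmd9, Psmd12 and Psme4. Its share was 12.4% of all promoters, 16.8% of the genes listed in the deposited table and 18.5% of ribosomal protein genes. CCAAT was held by 12 members (32.4%), 37.4% of all promoters and 43.1% of listed genes, and TATAAA by 3 members (8.11%), 13.6% of all promoters and 9.17% of listed genes. The core of the interferon-stimulated response element, GAAA and again GAAA with 2 bases of any kind between them, was held by 5 members (13.5%), compared to 3.44% of all promoters, 3.84% of listed genes, 13.0% of ribosomal protein genes and 3.03% of oxidative phosphorylation genes. No spelling contains another. A match is a description of letters and not a site of binding. The 120 bases before the start follow for the member with the highest FPKM at 21 dpi (Psmd2), for those with 3 ETS cores in this stretch (Psmc1 and Psmg1), for 1 of the 2 catalytic subunits with the antioxidant response element core (Psmb5, where it starts 47 bases before the start), and for the member furthest below the all-gene median in the genotype comparisons (Psmg4), which has no match to either motif there. Capitals mark CGGAAG or its reverse complement, and TGACNNNGC in Psmb5. These 5 promoters were chosen after values were seen. They are from RefSeq, build GRCm38.p6, and lie at chr16:20651532-20651651 on the plus strand (Psmd2), chr12:100110082-100110201 on the plus strand (Psmc1), chr16:95990961-95991080 on the minus strand (Psmg1), chr14:54617996-54618115 on the minus strand (Psmb5) and chr13:34162844-34162963 on the plus strand (Psmg4).
Psmd2: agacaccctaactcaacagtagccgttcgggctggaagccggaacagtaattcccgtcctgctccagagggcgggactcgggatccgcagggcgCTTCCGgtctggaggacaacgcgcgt
Psmc1: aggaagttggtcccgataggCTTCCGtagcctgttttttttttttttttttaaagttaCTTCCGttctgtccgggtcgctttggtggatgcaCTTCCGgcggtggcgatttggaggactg
Psmg1: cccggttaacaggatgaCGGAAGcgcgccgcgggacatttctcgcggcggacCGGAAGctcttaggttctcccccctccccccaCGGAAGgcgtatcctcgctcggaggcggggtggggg
Psmb5: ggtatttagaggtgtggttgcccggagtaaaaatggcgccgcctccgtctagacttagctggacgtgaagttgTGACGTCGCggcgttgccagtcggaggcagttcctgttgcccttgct
Psmg4: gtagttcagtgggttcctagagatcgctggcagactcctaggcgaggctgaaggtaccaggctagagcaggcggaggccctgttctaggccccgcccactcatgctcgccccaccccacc

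**Figure D2:**
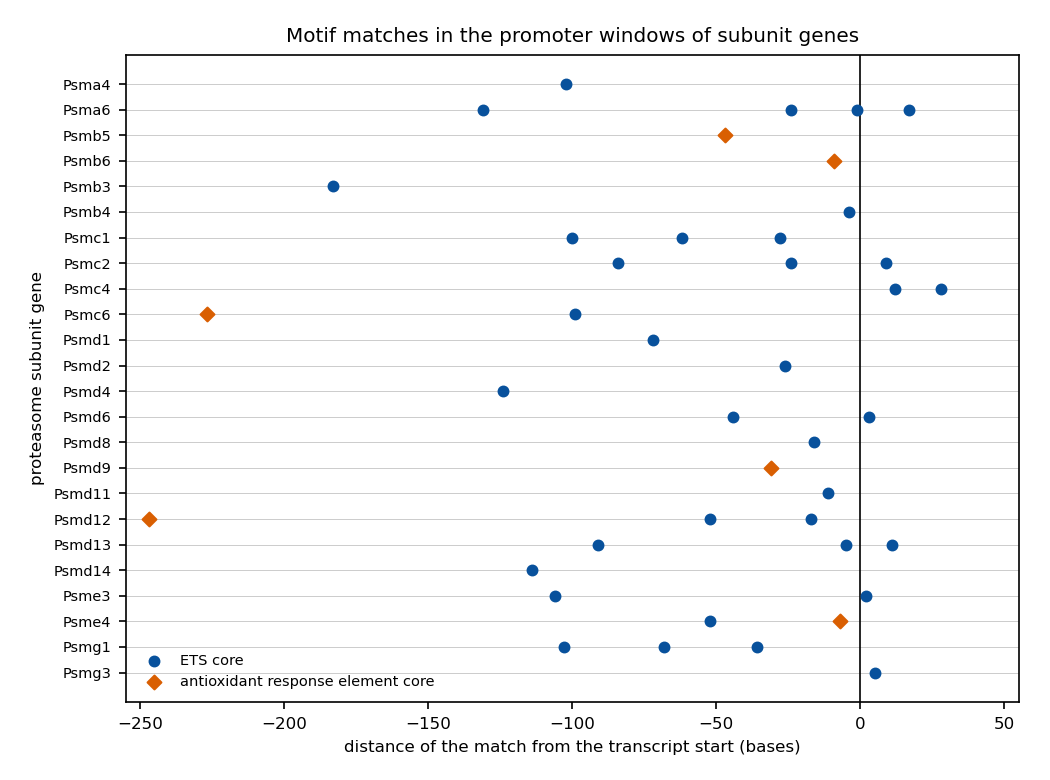
Positions of matches to the ETS core and to the antioxidant response element core, in bases from the transcript start, for the members that hold either. Of the 36 ETS matches, 29 began within 100 bases before to 50 after the start.

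At 7 dpi the proteasome genes hardly differed between genotypes. None of the 44 was past the fold in either direction, where 3.78% of all genes were higher in ApoE3 and 4.76% higher in ApoE4 (8.54% in either direction). Among genes within the members' range of FPKM these shares were 2.8%, 3.68% and 6.48%. Centring left the count of members at 0, compared to 3.76%, 4.82% and 8.58% of all genes and 2.79%, 3.74% and 6.53% of genes in that range. The median log2 ratio of the members was 0.02, compared to 0.00 for all genes whose mean FPKM reached 1, and single members lay between -0.27 (Psmg4) and 0.19 (Psma2). At 7 dpi 27 of the 44 members lay above the all-gene median, compared to 50.1% of all genes and 50.8% in the range of FPKM, and 16 were lower in ApoE3, compared to 49.5% and 48.7%. The members also lay closer together than genes at large, with an interquartile range of 0.13, compared to 0.24 for all genes, 0.23 for genes within the members' range of FPKM, 0.09 for ribosomal protein genes and 0.13 for oxidative phosphorylation genes.

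At 21 dpi all 38 members were lower in ApoE3 than in ApoE4, and so were 93.8% of all genes and 95.7% of genes within the members' range of FPKM. The members' median log2 ratio was -0.41, where that of all genes was -0.42. Past the fold and higher in ApoE4 were 25 of the 38 members, compared to 58.9% of all genes and 61.2% in the range of FPKM, and 0 members were higher in ApoE3, compared to 2.02% and 1.05%. In either direction, 60.9% of all genes and 62.3% in the range were past the fold. After the all-gene median was subtracted from each ratio (a centred ratio), the members' median was 0.01, 20 lay above and 18 below the all-gene median, and none was past the fold in either direction, where 7.47% of all genes were higher in ApoE3 and 8.07% higher in ApoE4 (5.37% and 6.16% in the range of FPKM). In that range 48.4% of genes lay above the all-gene median. The direction of the members at 21 dpi was thus shared with nearly all genes listed at that time point. The interquartile range of the members was 0.18, compared to 0.28 for all genes, 0.26 for genes within the members' range of FPKM, 0.17 for ribosomal protein genes and 0.18 for oxidative phosphorylation genes.

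**Figure D3:**
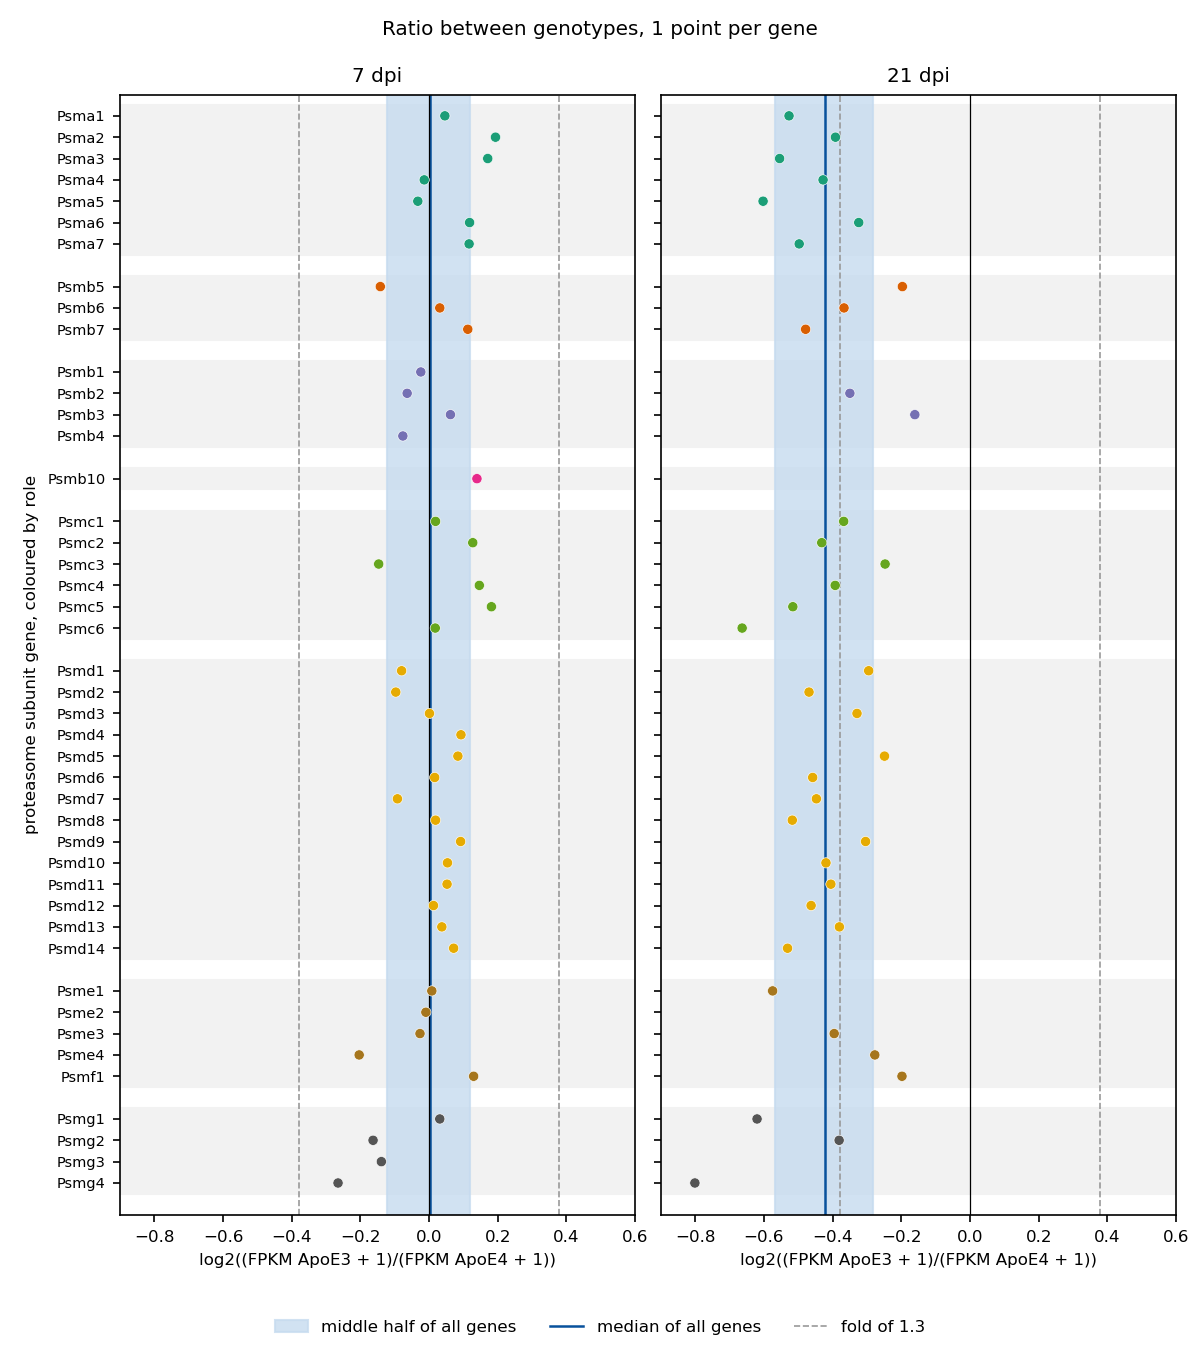
Log2 ratio of ApoE3 to ApoE4 for each proteasome gene at 7 dpi (left) and 21 dpi (right), with the median and the quartiles of all genes and the fold of 1.3 in either direction. The members follow the shift of all genes from 0.00 at 7 dpi to -0.42 at 21 dpi.

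The alpha ring forms the gate of the core particle. Psma7 had the highest FPKM of its 7 listed members, with 193 (ApoE3) and 178 (ApoE4) FPKM at 7 dpi, and 295 and 417 at 21 dpi. Psma2 had the lowest, with 10.7 and 9.24 at 7 dpi and 18.7 and 24.8 at 21 dpi. Both were slightly higher in ApoE3 at 7 dpi and higher in ApoE4 at 21 dpi, with log2 ratios of 0.12 and -0.50 for Psma7 and 0.19 and -0.39 for Psma2. Psma5 had 15.3 and 15.7 FPKM at 7 dpi and 21.6 and 33.4 at 21 dpi, and its ratio was the lowest of the ring at both time points (-0.03 and -0.60). Psma6 had 67.5 and 62.1 FPKM at 7 dpi and 114 and 143 at 21 dpi, and its ratio of -0.32 was the highest of the ring at 21 dpi. Of the ring, 6 of 7 members were past the fold at 21 dpi, compared to 58.9% of all genes, and 0 of 7 after centring. The ring's median ratio was 0.12 at 7 dpi and -0.50 at 21 dpi, and its centred median was 0.11 and -0.07.

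Of the beta ring, Psmb6, Psmb7 and Psmb5 hold the caspase-like, trypsin-like and chymotrypsin-like active sites. Psmb7 had 177 (ApoE3) and 164 (ApoE4) FPKM at 7 dpi, and 312 and 436 at 21 dpi. Psmb6 had 128 and 125 at 7 dpi and 219.5 and 283 at 21 dpi. Psmb5 had 73.9 and 81.7 at 7 dpi and 162 and 186 at 21 dpi. The order Psmb7, Psmb6, Psmb5 held in all 4 groups. Psmb5 went from below the all-gene median at 7 dpi (centred ratio -0.14) to above it at 21 dpi (0.23), a difference of 0.37 that was the largest among the 38 members and short of the fold. The ratio of Psmb5 to Psmb7 FPKM was 0.417 in ApoE3 and 0.498 in ApoE4 at 7 dpi, and 0.518 and 0.426 at 21 dpi.

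Psmb10 is the interferon-inducible subunit that takes the place of Psmb7 in immunoproteasomes. It had 60.0 (ApoE3) and 54.4 (ApoE4) FPKM at 7 dpi, a log2 ratio of 0.14, and its level was 0.338 and 0.332 of that of Psmb7. Among the beta subunits without an active site, Psmb4, which guides assembly of the ring, had the highest level at 7 dpi (163 FPKM in ApoE3 and 172 in ApoE4). Psmb3 had the lowest, with 19.4 and 18.5 at 7 dpi and 32.4 and 36.3 at 21 dpi. Its ratio of -0.16 at 21 dpi was the highest of all members and its centred ratio was 0.26. Psmb2 had 69.3 and 72.5 FPKM at 7 dpi and 110.3 and 141 at 21 dpi.

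The ATPases of the regulatory particle unfold the substrate and open the gate of the core. Psmc4 had the highest level of the 6, with 65.9 (ApoE3) and 59.5 (ApoE4) FPKM at 7 dpi and 105 and 138 at 21 dpi. Psmc6 had 24.4 and 24.04 at 7 dpi and 29.0 and 46.4 at 21 dpi, where its ratio of -0.66 was the lowest of the ATPases. Psmc5 had 39.3 and 34.5 at 7 dpi, the highest ratio of the ATPases (0.18), and 78.9 and 113 at 21 dpi. Psmc3 ran the other way, with 30.4 and 33.8 at 7 dpi, a ratio of -0.15, and 71.0 and 84.4 at 21 dpi, a centred ratio of 0.18. The centred median of the ATPases was 0.07 at 7 dpi and 0.01 at 21 dpi.

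The non-ATPase members include the ubiquitin receptors, the scaffold of the base, the deubiquitinase and base assembly chaperones. Psmd4, a ubiquitin receptor, had the highest FPKM of all members at 7 dpi, with 317 (ApoE3) and 297 (ApoE4) FPKM. Psmd2, a scaffold subunit that also binds ubiquitin, had 197 and 210.4 at 7 dpi and 374 and 518 at 21 dpi. Psmd14, the deubiquitinase that removes the chain, had 13.6 and 12.9 at 7 dpi and 21.8 and 31.9 at 21 dpi. The lowest ratio of the 13 at 21 dpi was that of Psmd14 (-0.53), and the highest was that of Psmd5 (-0.25), a base assembly chaperone with 79.9 and 75.4 FPKM at 7 dpi and 103 and 122 at 21 dpi. Psmd1, the other large scaffold subunit, had 19.5 and 20.7 at 7 dpi and 19.3 and 23.9 at 21 dpi, so the scaffold genes Psmd1 and Psmd2 differed by an order of magnitude in every group. The centred median of the non-ATPase members was 0.03 at 7 dpi and 0.00 at 21 dpi.

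The activators open the core without ubiquitin, and Psmf1 inhibits it. Psme1 and Psme2 form 1 ring together, yet Psme1 had 17.9 (ApoE3) and 17.8 (ApoE4) FPKM at 7 dpi where Psme2 had 180.5 and 182. The value of Psme2 is uncertain because a nearly identical copy, Psme2b, exists in the genome. Psme3, the nuclear activator, had 46.6 and 47.4 at 7 dpi and 62.5 and 82.5 at 21 dpi. Psme4, an activator with roles in chromatin and DNA repair, had 23.4 and 27.2 at 7 dpi and 23.2 and 28.3 at 21 dpi, and its ratio of -0.20 at 7 dpi was the lowest of this role. Psmf1 had 82.9 and 75.7 at 7 dpi and 111 and 128 at 21 dpi, with ratios of 0.13 and -0.20 and a centred ratio of 0.23 at 21 dpi. Psme1 had 22.8 and 34.4 at 21 dpi, the lowest ratio of this role (-0.57).

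The core assembly chaperones, which leave the core or are degraded once it is built, had the lowest centred median of any role at both time points (-0.15 and -0.20). Psmg4 had 15.6 (ApoE3) and 18.9 (ApoE4) FPKM at 7 dpi, and 28.9 and 51.1 at 21 dpi. Its ratios of -0.27 and -0.80 were the lowest of all members at both time points, and its centred ratio of -0.38 at 21 dpi lay just short of the fold. Psmg1, the partner of Psmg2, had 11.2 and 10.9 at 7 dpi and 15.4 and 24.2 at 21 dpi, a ratio of -0.62. Psmg2 had 12.2 and 13.8 at 7 dpi and 20.3 and 26.8 at 21 dpi, and Psmg3, the partner of Psmg4, had 27.3 and 30.1 at 7 dpi.

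Compared to the all-gene median, 12 of the 38 members lay above it at both time points and 5 below it at both, compared to 24.6% and 23.6% of the 10876 genes listed at both. A further 13 went from above at 7 dpi to below at 21 dpi, and 8 went from below to above, compared to 26.1% and 25.6%. The difference between the centred ratios of the time points ran from -0.30 (Psma3, chosen after its values were seen) to 0.37 (Psmb5), and none was past the fold, compared to 22.9% of these genes.

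Among lists of genes that work with the proteasome, those in this paragraph had centred medians between -0.07 and 0.09. Proteasome-bound and assembly factors outside the rule, with 10 genes at 7 dpi and Usp14 the most abundant, had a centred median of 0.09 at 7 dpi and 0.00 at 21 dpi. Their only gene past the fold at 7 dpi was the deubiquitinase Uchl5, with 56.3 (ApoE3) and 38.4 (ApoE4) FPKM, a log2 ratio of 0.54, and it was chosen after its values were seen. Ubiquitin and its activating genes (Ubb the most abundant) had centred medians of 0.00 and 0.02, and substrate delivery genes (Sqstm1 the most abundant) had 0.02 and 0.02. Genes of the Nrf1 pathway that controls proteasome genes (Nfe2l1 the most abundant) had 0.01 and -0.07. All 6 of those listed at 21 dpi lay below the all-gene median, where 50% of all genes lay above it. Of these 6, only Maff was past the fold after centring (-0.43, higher in ApoE4), compared to 8.07% of all genes.

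The interferon-induced list, in which B2m was the most abundant gene, behaved differently. Its median ratio at 7 dpi was 0.76, and 10 of 15 genes were past the fold and higher in ApoE3, compared to 3.78% of all genes. At 21 dpi its centred median was -0.20, and 11 of 11 genes lay below the all-gene median, where 50% of all genes lay above it. After centring, 3 of the 11 were past the fold and higher in ApoE4, compared to 8.07% of all genes. The interferon-inducible proteasome members did not share the difference at 7 dpi, where the ratio was 0.14 for Psmb10, 0.01 for Psme1 and -0.01 for Psme2. Nor did the antigen-processing genes of that list, with ratios of -0.09 for B2m, -0.07 for Tap2, 0.01 for Tapbp and 0.22 for Tap1, which were chosen after their values were seen.

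**Figure D4:**
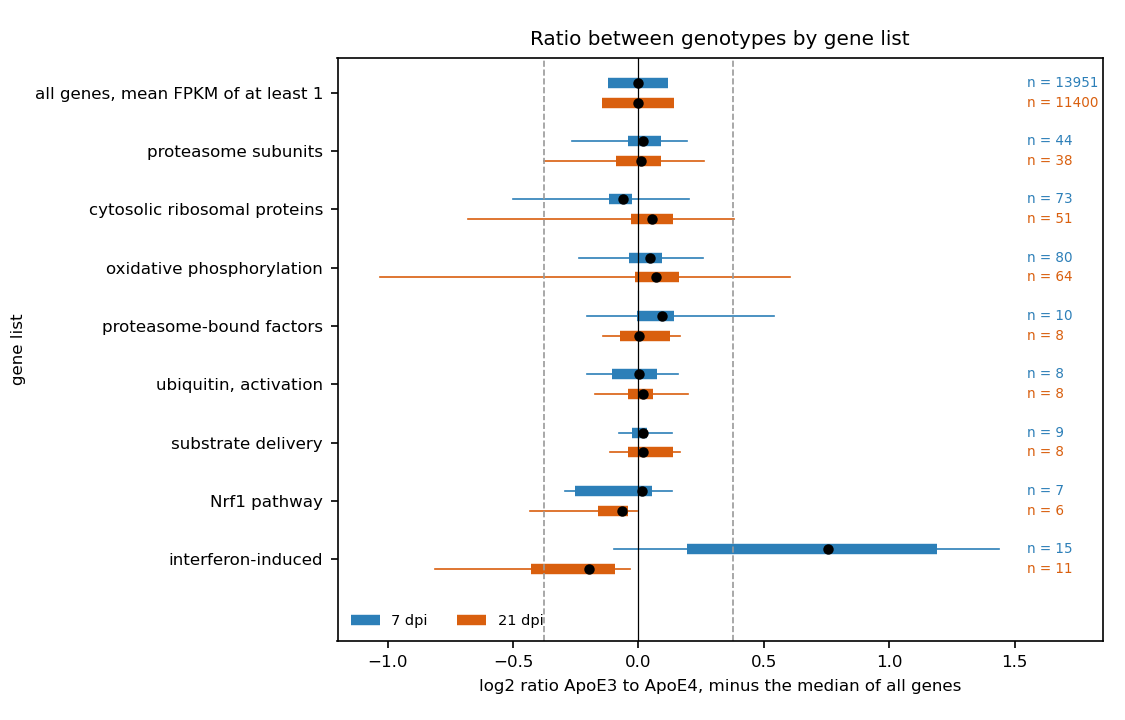
Median log2 ratio of ApoE3 to ApoE4, minus the all-gene median, for the proteasome genes and for lists of related genes at 7 and 21 dpi. The interferon-induced list stands apart at 7 dpi (0.76), while the proteasome genes lie near 0 at both time points.

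Between time points the comparison is weaker, because the values at 7 and 21 dpi come from different mice and may have been normalized separately. Summed over the 38 members, FPKM was 2061 in ApoE3 and 2019 in ApoE4 at 7 dpi, and 3247 and 4357 at 21 dpi. As a share of the summed FPKM of genes listed at both time points, scaled to 1000000, this was 1724 and 1684 at 7 dpi and 2245 and 2231 at 21 dpi. The share was thus higher at 21 dpi in both genotypes, and the genotypes were nearly equal within each time point.

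The members' median log2 ratio of 21 to 7 dpi was 0.65 in ApoE3 (1.57-fold) and 1.08 in ApoE4 (2.11-fold), where all genes had medians of 0.09 and 0.53. Before centring, 27 of 38 members were past the fold and higher at 21 dpi in ApoE3, compared to 31.3% of all genes, and 36 in ApoE4, compared to 59%. Centred on all genes, the members' medians were 0.56 and 0.55. In ApoE3, 24 of 38 members were past the fold and higher at 21 dpi after centring, compared to 26.6% of all genes, and 0 were lower, compared to 27.7%. In ApoE4, 26 of 38 were higher, compared to 26.1% of all genes, and 1 was lower (Psme4), compared to 28.6%. Of the members, 23 of 38 were past the fold and higher in both genotypes, compared to 19.7% of genes listed at both. Cell-type markers moved as well. Centred medians in ApoE3 and ApoE4 were 0.76 and 1.28 for 7 neuronal genes and 0.39 and 0.45 for 3 oligodendrocyte genes. They were -0.73 and -0.27 for 6 astrocyte genes, -1.50 and -1.17 for 5 microglia and macrophage genes, and 1.35 and 1.19 for 2 erythrocyte genes. Calca had 0.81 and 1.09. The genotypes lay further apart for 4 Schwann cell genes (2.39 and 0.23), 6 skeletal muscle genes (-1.05 and 2.98) and 4 neutrophil genes (-0.70 and 0.34). The part of these markers in the members' ratios was not tested.

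The ATPases had the highest centred medians of the roles, 0.77 in ApoE3 and 0.76 in ApoE4, and the activators with the inhibitor had the lowest, 0.29 and 0.24. Psmc3 had the largest ratio in ApoE3, with a centred value of 1.11, and Psmc5 had the largest in ApoE4, with 1.16. Psmd1 lay below the all-gene median in both genotypes (-0.11 and -0.33), and so did Psme4 (-0.11 and -0.47). Oxidative phosphorylation genes had higher centred medians than the proteasome, 1.03 and 0.92, and ribosomal protein genes had lower ones, 0.40 and 0.31. Genes of the Nrf1 pathway had -0.21 and -0.14.

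**Figure D5:**
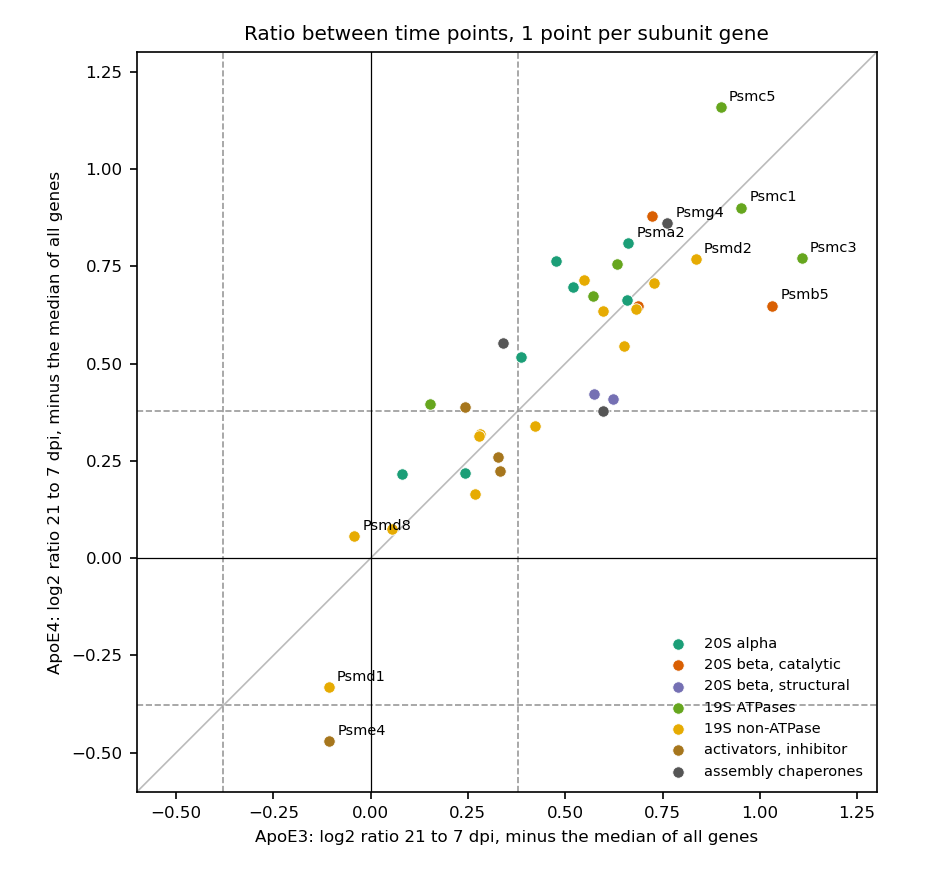
Log2 ratio of 21 to 7 dpi minus the all-gene median, for each proteasome gene, with ApoE3 and ApoE4 side by side. Most members lie above 0 in both genotypes (medians 0.56 and 0.55), and Psmd1 and Psme4 lie below.

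Transcript length went along with the time ratio among all genes. Length here is that of the longest protein-coding transcript of a gene, which need not be the one expressed. Spearman's rho between the ratio and length was -0.39 in ApoE3 and -0.33 in ApoE4 across 10349 genes, and -0.29 and -0.25 across the 38 members. The members' median length was 1561 bases, compared to 3194 for all genes. Among genes under 1000 bases the centred median was 0.57 in ApoE3 and 0.52 in ApoE4, where the 5 members of that length had 0.69 and 0.65. From 1000 to 1500 bases all genes had 0.45 and 0.36, and the 13 members had 0.39 and 0.52. From 1500 to 2000 bases all genes had 0.27 and 0.23, and the 8 members had 0.62 and 0.71. From 2000 to 3000 bases all genes had 0.10 and 0.06, and the 8 members had 0.56 and 0.59. Short genes at large were thus also higher at 21 dpi. Under 1000 bases the members' medians lay somewhat above those of all genes. From 1000 to 1500 bases they lay below in ApoE3 and above in ApoE4. From 1500 to 3000 bases the members' medians lay above those of all genes in both genotypes. Single members did not all do so, such as Psmd8 (-0.04 and 0.06), chosen after its values were seen. Only 4 members were longer than 3000 bases. The 2 members from 3000 to 4000 bases had 0.11 in ApoE3 and -0.05 in ApoE4, where all genes had -0.03 and -0.06. Psmd5, from 4000 to 6000 bases, had 0.27 and 0.16, where all genes had -0.18 and -0.16. Psme4, over 6000 bases, had -0.11 and -0.47, where all genes had -0.39 and -0.32. No test of the part of length in the time ratios was run.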

How the data were processed

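The deposited table holds FPKM + 1 for 14127 rows at 7 dpi and 11474 at 21 dpi, 1 value per gene and group, and 1 was subtracted from each. Per the submitters' processing notes, the authors made these FPKM values from single-end reads down-sampled to the smallest library, with STAR 2.5.4b, Bowtie2 2.1.10, SAMtools 0.1.7 and Cuffdiff 1.3.0, from non-stranded libraries, so genes that overlap on opposite strands cannot be told apart. Genome build and annotation were not given in the sources used here. Reads per gene are unknown, so no precision can be given for a value. The first value of each row was read as ApoE3 from the name of its comparison. The authors' comparison columns (p, q and fold) were not used.

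The members and lists were chosen with earlier results of these data known. Members were named in the text by a rule: all catalytic and inducible beta subunits, activators, the inhibitor and core assembly chaperones, and in each other role the members with the highest and lowest FPKM and ratio, and any past the fold after centring. Centring used genes whose mean FPKM reached 1. For the genotype comparisons, only Mbp of the oligodendrocyte list and no gene of the Schwann cell list are reported here. Alternatives tried were other pseudocounts, a filter on low values, other folds, other scalings and other sets of members. Promoters came from RefSeq GRCm38.p6, and transcript lengths and overlaps came from GENCODE vM21. In GENCODE vM21, exons of 7 members overlap another protein-coding gene: Psma4, Psmb7, Psmc3, Psmd1, Psmd13, Psme1 and Psmg3. The values of these members may hold reads of the other gene. Python 3.11.15, numpy 2.4.6, pandas 2.3.3 and matplotlib 3.10.9 were used, and the calls and the centring were tested on simulated data.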

Additional observations from a re-analysis of the deposited data

Results flagged for a closer look

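Some values lay at least 0.1 on opposite sides of the median of all genes at 7 and 21 dpi, which drew attention because their position relative to that median turned between time points. The limit of 0.1 was chosen after values were seen, and none of these differences was tested. The interferon-induced list had a centred median of 0.76 at 7 dpi and -0.20 at 21 dpi. Among proteasome genes, the centred ratio was 0.17 and -0.13 for Psma3, -0.14 and 0.23 for Psmb5, -0.15 and 0.18 for Psmc3, and -0.21 and 0.15 for Psme4. Before centring, Psmb5, Psmc3 and Psme4 were lower in ApoE3 at both time points, so only their position relative to other genes turned. Tissue markers turned too, with centred medians of 0.25 and -0.13 for the neuron list, 0.53 and -0.34 for the neutrophil list and 0.31 and -3.85 for the skeletal muscle list.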

How the results depend on the processing

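Scaling mattered most. The members' median ratio at 21 dpi, -0.41 with deposited FPKM, was 0.011 after centring, 0.014 after rescaling each group to the same sum and 0.0094 after rescaling without Mbp. The count past the fold and higher in ApoE4 at 21 dpi went from 25 to 0 after centring and to 0 after rescaling. It was 33 at a fold of 1.2 and 4 at a fold of 1.5. At 7 dpi this count went from 0 to 1 at a fold of 1.2. The shares of all genes past folds of 1.2 and 1.5 were not computed, so nothing about the members is read from the counts at those folds. The median time ratio went from 0.65 to 0.38 after rescaling in ApoE3 (0.44 without Mbp), and in ApoE4 from 1.08 to 0.55 after centring and 0.40 after rescaling (0.46 without Mbp). At 21 dpi, among members named by the rule, centring and rescaling turned the direction of Psma2 (0.032 and 0.027), Psmc4 (0.031 and 0.042), Psme3 (0.028 and 0.036) and Psmg2 (0.042 and 0.039), all from past the fold to near 0. Centring did so also for Psmd10 (0.0041), Psmd11 (0.018) and Psmd13 (0.043), chosen after their values were seen. Leaving out Mbp or members with overlapping genes was chosen after seeing the data. Members short of the fold at 21 dpi, such as Psmb5 and Psmb3, also changed side under both scalings. Alternatives other than scaling changed no direction. No paired analysis was possible because each group has 1 value per gene. The limits are the single value per group, the reading of the genotype columns, and tissue content that was not tested.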
